A study of Rattus norvegicus with 12 samples.

Results

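Cells given TGF-beta1 and then 3D-EVs were compared with cells given TGF-beta1 alone in NRK-52E, a rat line of kidney tubular epithelial cells. The members were the 3 libraries of each group, 6 of the 12 libraries of the series, chosen by their labels. All 24660 genes of the joint count table belonged to the comparison, and the 14184 with enough counts were tested. The 4 groups of the series (control, TGF-beta1, 2D-EV and 3D-EV cells, 3 libraries each) came from 1 wild-type line. TGF-beta1 cells were exposed to TGF-beta1, a cytokine that drives fibrosis, for 24 h at a labelled dose of 10 µg/ml, a unit that is in doubt because ng/ml doses are usual. 3D-EV cells received the same TGF-beta1 and then, for 48 h, extracellular vesicles (EVs) made by an efficient production method, at 500000000 particles/ml. 2D-EV cells received conventionally made EVs at the same dose and time, and control cells are labelled with no agent. The study asked how the 2 preparations differ in efficacy against a fibrosis-like state. The sources used here give neither the cells that made the EVs, nor the harvest time of the TGF-beta1 cells, nor whether TGF-beta1 stayed in the medium. In the comparison with TGF-beta1 cells, the EVs, the added hours and any removal of TGF-beta1 therefore cannot be told apart. The p-values measure the spread between libraries, which may be technical, because the labels do not say that the libraries came from separate cultures.

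TGF-beta1 signals through a pair of receptor kinases to SMAD transcription factors, which switch on matrix, contractile and feedback genes. In the kidney tubule this response accompanies a loss of epithelial features and is studied as a step toward fibrosis. EVs are membrane-bound particles that cells shed and that other cells take up, largely by endocytosis, after which much of the cargo passes through endosomes to lysosomes. NF-kB is a transcription factor that raises chemokine, adhesion and acute-phase genes when cells meet cytokines, microbial products or damage.

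Library totals were 35191827 to 36703469 counts in TGF-beta1 cells and 34185568 to 39754319 in 3D-EV cells. Expression is given as CPM, a gene's counts relative to the TMM-scaled total of its library, and a single count stood for 0.0255 to 0.0305 CPM over the 12 libraries. The share of mitochondrial genes was 5.31 to 5.58% over the libraries. Of the markers of tubular and simple epithelium, Epcam, Pax2 and Cldn7 held 0 counts in all 12 libraries, while the keratin Krt8 stood at 1225, 1170.2 and 1252 CPM in TGF-beta1 cells and 1182, 1154 and 1139 CPM in 3D-EV cells. Cubn, a receptor of the proximal tubule, was at 0.920, 1.15 and 1.18 CPM and 0.535, 0.570 and 1.01 CPM. Markers of immune cells that define leukocytes (Ptprc, Itgam, C1qa, C1qb, Tyrobp and Ms4a1) were at 0 in every library. The summed level of the 11 immune markers, 4 of them tested, was 247.58 to 254.64 CPM in TGF-beta1 cells and 247.45 to 249.95 CPM in 3D-EV cells. Of the tested markers, Cd68 was at 2.76, 3.03 and 3.76 CPM in TGF-beta1 cells and 4.13, 3.73 and 3.66 CPM in 3D-EV cells. Lyz2 was at 0.403, 0.253 and 0.385 CPM and 0.229, 0.057 and 0.149 CPM. Most of the sum thus came from the other tested markers, Cd14 and Cd3e. The summed level of 10 mesenchymal stromal cell markers, 9 of them tested, was 294.39 to 304.92 CPM and 312.8 to 325.87 CPM, without overlap. It was 307.26 to 316.07 CPM in 2D-EV cells. Most of this sum came from Cd44 (122, 117 and 125 CPM in TGF-beta1 cells, 137, 135 and 124 CPM in 3D-EV cells) and Alcam (147, 152 and 152 CPM, 161, 152 and 170 CPM). None of the 9 tested stromal markers was higher in all 3D-EV libraries than in all TGF-beta1 libraries, and Cd44 and Alcam were higher at an unadjusted p below 0.05. The part of these markers in the results was not tested.

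No gene passed an adjusted p below 0.05 by edgeR's quasi-likelihood test (0 of 14184, 0%), and the smallest adjusted p was 0.405. By edgeR, 1027 genes (7.24%) had an unadjusted p below 0.05, 516 of them higher in 3D-EV cells (3.64%) and 511 lower (3.60%). An even spread of p-values would put 709 genes there, and the histogram of p-values stands above that line at its left end. limma-voom also called 0 genes (0%). DESeq2 called 13 of 14183 (0.0917%), 8 higher (0.0564%) and 5 lower (0.0353%). These calls moved with single libraries: DESeq2 called 4 genes without TGF-beta1 replicate 2, 2 without TGF-beta1 replicate 3, 21 without 3D-EV replicate 1 and 6 without 3D-EV replicate 2. Of the 13 genes, 2, 2, 11 and 1 were among these calls, 8 were called without TGF-beta1 replicate 1 and 6 without 3D-EV replicate 3, so the DESeq2 p-values below depend on single libraries. Of the tested genes, 964 (6.80%) were higher in all 3D-EV libraries than in all TGF-beta1 libraries and 969 (6.83%) were lower in all of them. These shares are the background for every count of non-overlapping genes below. For counts at an unadjusted p below 0.05, the background is 3.64% higher and 3.60% lower. With 1 library left out, it was 2.91 to 3.68% higher and 2.7 to 4.19% lower.

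**Figure D1:**
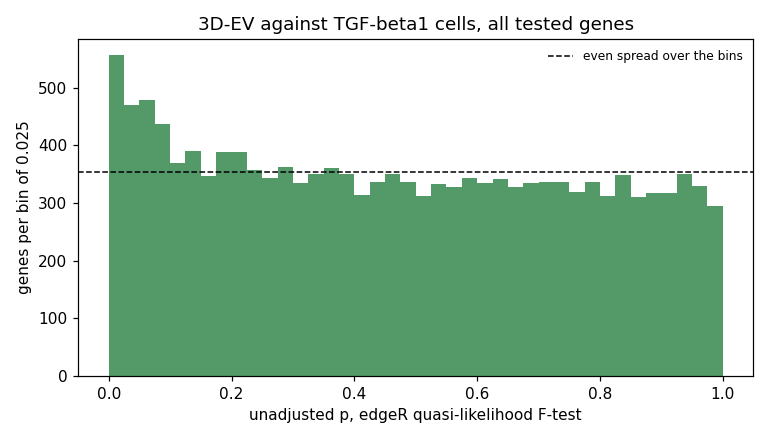
Unadjusted p-values of 3D-EV against TGF-beta1 cells for the 14184 tested genes, in bins of 0.025, with the number of genes per bin on the vertical axis. The dashed line is an even spread, and the leftmost bins stand above it: 1027 genes lie below 0.05, where an even spread gives 709.

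The libraries were close enough to each other to bound most differences. Of 9173 genes with a mean of at least 10 CPM over the 6 libraries, 28 had an absolute log2 fold change of at least 0.5 and 8 of at least 1. The median half-width of the 95% interval of these genes was 0.12 on the log2 scale. For 9021 of them (98.4%) the whole interval lay between -0.5 and 0.5. A change in bulk RNA cannot be assigned to fewer expressing cells or to less RNA per cell.

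The genes by which the TGF-beta1 response is usually read stood at nearly the same level with and without 3D-EVs. Ccn2, a matricellular protein and direct SMAD target, was at 4115, 4075 and 3990.5 CPM in TGF-beta1 cells and 4066, 4139 and 4012 CPM in 3D-EV cells (log2 fold change 0.0043, 95% interval -0.050 to 0.058). The libraries of the 2 groups were interleaved. Acta2, the smooth muscle actin of myofibroblasts, was at 853, 876 and 854 CPM in TGF-beta1 cells and 826, 837 and 853 CPM in 3D-EV cells (log2 fold change -0.038, 95% interval -0.11 to 0.031). The highest Acta2 library of the 3D-EV cells lay just above the lowest of the TGF-beta1 cells. Vim, the intermediate filament vimentin, was at 2755, 2749 and 2724 CPM in TGF-beta1 cells and 2769, 2778 and 2685 CPM in 3D-EV cells (log2 fold change 0.00039, 95% interval -0.065 to 0.066). Tgfb1, which encodes the cytokine itself, was at 186, 187 and 188 CPM in TGF-beta1 cells and 182, 190.1 and 194 CPM in 3D-EV cells (log2 fold change 0.013, 95% interval -0.086 to 0.11). Neither gene separated the groups.

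Neither of the large matrix genes of the panel was lower with 3D-EVs. Fn1, which encodes fibronectin, was at 902, 944 and 959 CPM in TGF-beta1 cells and 1001, 998 and 975 CPM in 3D-EV cells. All 3 3D-EV libraries were above all TGF-beta1 libraries, by a log2 fold change of 0.085 (95% interval -0.032 to 0.20, edgeR adjusted p = 0.782). Col1a1, a chain of type I collagen, was at 338, 364 and 364 CPM in TGF-beta1 cells and 359, 358 and 389 CPM in 3D-EV cells, with overlap and an interval of -0.14 to 0.25. Cdh1, the epithelial cadherin that TGF-beta1 is known to repress, was near the limit of measurement, at 0.460, 0.393 and 0.110 CPM in TGF-beta1 cells and 0.153, 0.256 and 0.0595 CPM in 3D-EV cells, with a log2 fold change of -1.01 and an interval of -2.41 to 0.36. That value was -0.66 without TGF-beta1 replicate 1 and -0.65 without 3D-EV replicate 3. Havcr1, the injury marker KIM-1, held 0 counts in all 3 TGF-beta1 libraries and 4, 0 and 0 counts in the 3D-EV libraries and was not tested. Of 18 tested genes of epithelial junctions and keratins, 0 were higher and 1 was lower without overlap. The lower gene was Jup, the junction protein plakoglobin, at 543, 571 and 565 CPM in TGF-beta1 cells and 534, 536 and 529.6 CPM in 3D-EV cells (log2 fold change -0.069, 95% interval -0.14 to 0.0043). Of 14 renal tubule genes, 2 were higher and 0 lower, among them Atp1b1, a sodium pump subunit, at 1216, 1187 and 1186 CPM in TGF-beta1 cells and 1236, 1254 and 1250.3 CPM in 3D-EV cells (log2 fold change 0.059, 95% interval -0.00058 to 0.12).

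Ccn2, Acta2, Tgfb1, Fn1 and Col1a1 stood above control cells with 3D-EVs, and Cdh1 below. The comparisons of 3D-EV and of TGF-beta1 cells with control cells share the control libraries, so their values are given side by side. Col1a1 was at 181, 151 and 200.01 CPM in control cells, and its log2 fold change was 1.00 in TGF-beta1 cells and 1.06 in 3D-EV cells (edgeR adjusted p = 2.25e-06 and 1.42e-06). Ccn2 rose by 0.52 and 0.53, Fn1 by 0.68 and 0.76, Tgfb1 by 0.71 and 0.73, and Acta2 by 0.56 and 0.52. All of these passed by edgeR in both comparisons. Cdh1 was at 0.398, 0.642 and 0.840 CPM in control cells, with log2 fold changes of -0.96 in TGF-beta1 cells and -1.97 in 3D-EV cells (edgeR adjusted p = 0.241 and 0.0268). Havcr1 held 6, 0 and 8 counts in control cells. Over all genes, 1731 rose (12.2%) and 1531 fell (10.8%) in 3D-EV against control cells by edgeR, beside 1676 (11.8%) and 1448 (10.2%) in TGF-beta1 against control cells.

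**Figure D2:**
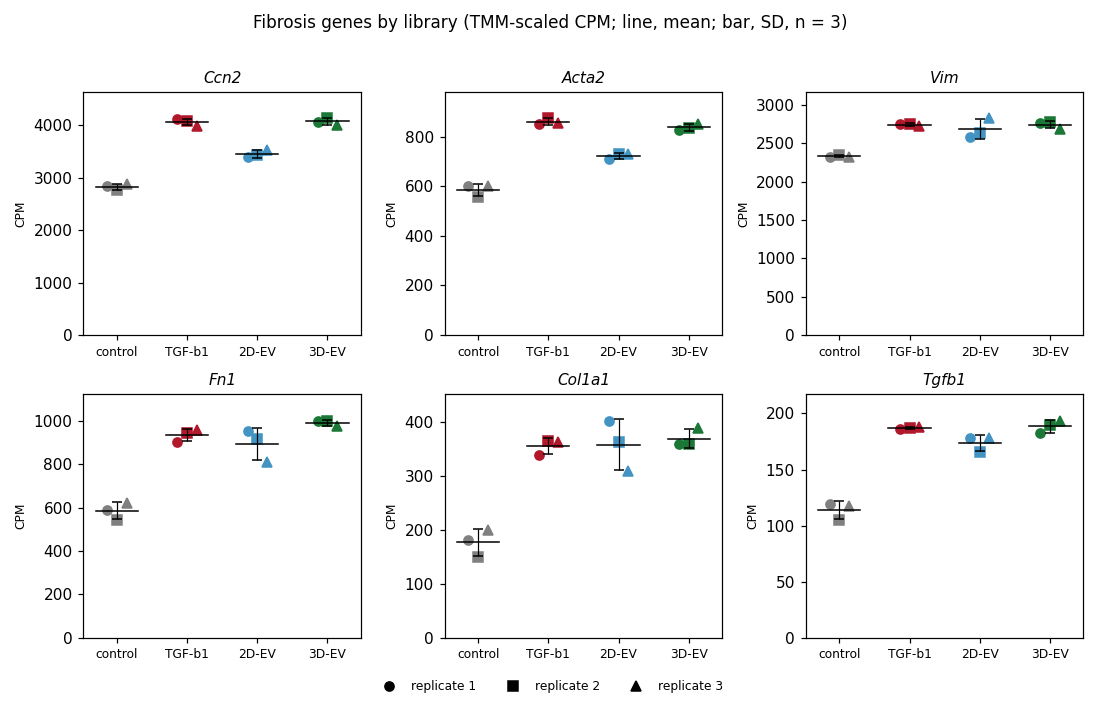
CPM of 6 fibrosis genes in each of the 12 libraries, by group, with the mean and the SD over 3 libraries; the marker shape gives the replicate number. The 3D-EV and TGF-beta1 points overlap for Ccn2, Acta2, Vim, Col1a1 and Tgfb1, the 3D-EV points of Fn1 are higher, and the 2D-EV points of Ccn2 and Acta2 lie lower.

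The wider matrix and contractile lists gave counts in both directions. Of 35 tested extracellular matrix genes, 4 were higher and 4 lower without overlap, and the median log2 fold change was 0.024, beside -0.0002 over all tested genes. Fbln2, the matrix protein fibulin-2, was at 164, 164 and 164 CPM in TGF-beta1 cells and 157, 152 and 148 CPM in 3D-EV cells (log2 fold change -0.10, 95% interval -0.20 to -0.0054), lower in every 3D-EV library. Fbln5, an elastic fibre protein, was at 441, 458 and 461 CPM in TGF-beta1 cells and 483, 458 and 497 CPM in 3D-EV cells (log2 fold change 0.081, 95% interval 0.0068 to 0.16, and 0.054 without 3D-EV replicate 3). Of 30 mesenchymal and contractile genes, 3 were higher and 4 lower without overlap (median -0.0001). Snai1, a transcription factor that represses epithelial genes, was at 31.3, 30.5 and 29.8 CPM in TGF-beta1 cells and 26.1, 25.7 and 27.1 CPM in 3D-EV cells. Its 3D-EV libraries were all below its TGF-beta1 libraries (log2 fold change -0.21, 95% interval -0.34 to -0.086, edgeR adjusted p = 0.511) and above its control libraries of 20.9, 18.6 and 21.1 CPM. Flna, the actin crosslinker filamin A, was at 1211, 1215 and 1246 CPM in TGF-beta1 cells and 1173, 1148 and 1150.2 CPM in 3D-EV cells, again without overlap (log2 fold change -0.081, 95% interval -0.14 to -0.024). Of 27 genes of matrix crosslinking and turnover, 2 were higher and 2 lower without overlap. Plaur, the urokinase receptor, was lower in all 3D-EV libraries, at 142, 129 and 137 CPM in TGF-beta1 cells and 122, 122.8 and 113 CPM in 3D-EV cells (log2 fold change -0.19, 95% interval -0.29 to -0.082, edgeR adjusted p = 0.503). Mmp19, a metalloproteinase, was higher in all of them, at 21.0, 23.8 and 21.4 CPM in TGF-beta1 cells and 27.3, 25.8 and 27.4 CPM in 3D-EV cells (log2 fold change 0.28, 95% interval 0.091 to 0.47). In 2D-EV against TGF-beta1 cells, these genes had log2 fold changes of the same sign. They were -0.14 for Fbln2, -0.23 for Snai1, -0.12 for Flna, -0.21 for Plaur, 0.030 for Fbln5 and 0.28 for Mmp19.

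Among 34 genes of the TGF-beta pathway and its feedback, 2 were higher and 3 lower without overlap. The 3 lower genes act downstream or against the signal. Smad7, the inhibitory SMAD, was at 135, 122 and 129 CPM in TGF-beta1 cells and 118, 114 and 116 CPM in 3D-EV cells (log2 fold change -0.15, 95% interval -0.24 to -0.056, edgeR adjusted p = 0.526). Smurf1, a ubiquitin ligase that SMAD7 recruits, was at 161, 165 and 168 CPM in TGF-beta1 cells and 159, 156 and 148 CPM in 3D-EV cells (log2 fold change -0.10, 95% interval -0.17 to -0.020), and Pmepa1, a membrane protein that sequesters SMADs, was lower as well (log2 fold change -0.075, 95% interval -0.16 to 0.011). The 2 higher genes were the ligand Tgfb2, at 145, 143 and 147 CPM in TGF-beta1 cells and 159.9, 156 and 148 CPM in 3D-EV cells, and the receptor Tgfbr2, at 260.3, 268 and 266 CPM in TGF-beta1 cells and 283, 271 and 275 CPM in 3D-EV cells. None of the 5 passed by edgeR. Pmepa1, Tgfb2 and Tgfbr2 were chosen after their values were seen. In 2D-EV against TGF-beta1 cells, 8 of the 34 were lower and 1 higher without overlap (6.23% and 6.13% of all tested genes). The log2 fold change there was -0.22 for Smad7 and -0.11 for Smurf1, so these falls were not particular to 3D-EV cells.

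Of the 8 genes that DESeq2 called higher in 3D-EV cells, 3 belong to the inflammation and NF-kB list: C3, Ccl20 and Csf1. Lcn2 is on the tubular injury list, B2m on the interferon and antigen presentation list, and Tnfrsf9 on none. Lcn2, which encodes the iron-binding protein lipocalin-2 of injured tubules, had the smallest p of all genes. It was at 7.76, 8.18 and 7.97 CPM in TGF-beta1 cells and 11.1, 13.7 and 11.6 CPM in 3D-EV cells, so that the groups were well apart. The log2 fold change was 0.61 (SE 0.11, 95% interval 0.37 to 0.84), with an adjusted p of 0.405 by edgeR and 0.00228 by DESeq2. Control libraries were at 9.98, 9.54 and 11.2 CPM and 2D-EV libraries at 11.3, 8.72 and 9.58 CPM, and Lcn2 in 3D-EV against control cells did not pass (log2 fold change 0.25, edgeR adjusted p = 0.125). Of the 17 tubular injury genes to which Lcn2 belongs, 3 were higher and 2 lower without overlap.

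C3, the central complement component, was at 2.44, 2.30 and 2.86 CPM in TGF-beta1 cells and 5.50, 9.34 and 3.72 CPM in 3D-EV cells, and Cxcl1, a neutrophil chemokine, at 30.7, 28.7 and 31.2 CPM in TGF-beta1 cells and 47.0, 63.8 and 34.1 CPM in 3D-EV cells. Ccl20, the ligand of CCR6, was at 1.61, 0.899 and 0.852 CPM in TGF-beta1 cells and 2.93, 5.24 and 1.82 CPM in 3D-EV cells. In each of these 3 genes the groups did not overlap, and 3D-EV replicate 2 stood highest and replicate 3 lowest among the 3D-EV libraries. The log2 fold change was 1.29 for C3 (SE 0.26, DESeq2 adjusted p = 0.00180), 0.68 for Cxcl1 (SE 0.15, DESeq2 adjusted p = 0.152) and 1.57 for Ccl20 (SE 0.38, DESeq2 adjusted p = 0.0197). The edgeR adjusted p was 0.405, 0.442 and 0.455. Without 3D-EV replicate 3, edgeR called 2 genes, Cxcl1 (adjusted p = 0.0231) and C3 (adjusted p = 0.0442). Without 3D-EV replicate 2, the log2 fold changes dropped to 0.43 for Cxcl1, 0.87 for C3 and 1.09 for Ccl20, and edgeR called none of them. Ccl2, a monocyte chemokine, followed the same order of libraries, at 8.22, 6.80 and 7.69 CPM in TGF-beta1 cells and 10.8, 16.3 and 7.59 CPM in 3D-EV cells, but its lowest 3D-EV library fell within the TGF-beta1 range.

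Other members were more even among the 3D-EV libraries. Csf1, the macrophage growth factor, was at 73.9, 74.9 and 79.0 CPM in TGF-beta1 cells and 86.0, 87.0 and 88.6 CPM in 3D-EV cells (log2 fold change 0.20, 95% interval 0.11 to 0.29, DESeq2 adjusted p = 0.0471, edgeR adjusted p = 0.442). Its control libraries stood higher still, at 100.01, 102 and 94.5 CPM. Icam1, an adhesion molecule for leukocytes, was at 147, 150.0 and 155 CPM in TGF-beta1 cells and 174, 174 and 161 CPM in 3D-EV cells (log2 fold change 0.17, 95% interval 0.080 to 0.26), and Nfkbia, the inhibitor IkB-alpha and itself an NF-kB target, at 22.4, 22.0 and 19.8 CPM in TGF-beta1 cells and 23.7, 25.9 and 24.1 CPM in 3D-EV cells (log2 fold change 0.20, 95% interval 0.063 to 0.34). Neither overlapped between the groups. Tnfaip3, the deubiquitinase A20 that ends NF-kB signalling, was the 1 member lower in all 3D-EV libraries, at 31.6, 31.0 and 31.9 CPM in TGF-beta1 cells and 29.4, 29.6 and 27.9 CPM in 3D-EV cells (log2 fold change -0.12, 95% interval -0.24 to 0.00077). Tnfrsf9, the costimulatory receptor CD137, is outside the list and was at 2.56, 2.33 and 2.50 CPM in TGF-beta1 cells and 3.92, 5.47 and 4.08 CPM in 3D-EV cells (log2 fold change 0.86, 95% interval 0.47 to 1.25, DESeq2 adjusted p = 0.0418). B2m, the light chain of MHC class I, was at 1236, 1215 and 1214 CPM in TGF-beta1 cells and 1280.5, 1382 and 1412 CPM in 3D-EV cells (log2 fold change 0.15, 95% interval 0.075 to 0.23, DESeq2 adjusted p = 0.0459). All 3D-EV libraries were higher for both genes. Except for C3, Csf1, Lcn2 and B2m, the genes of these paragraphs were chosen after their values were seen.

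Over the whole list of 29 tested inflammation and NF-kB genes, 9 were higher and 1 lower without overlap, or 9 higher and 0 lower at an unadjusted p below 0.05. The median log2 fold change was 0.11, beside -0.0002 over all tested genes. Without 3D-EV replicate 2, 7 of 30 tested members were higher at that p, where the share of all tested genes was 3.02%. The summed level of the list, which its most abundant members set, overlapped between the groups, at 1139.5, 1124.4 and 1146.1 CPM in TGF-beta1 cells and 1108.2, 1189.1 and 1172.3 CPM in 3D-EV cells. The lowest log2 fold change of the list, -0.63, was that of Nfkbie, chosen after its values were seen. Nfkbie was at 127, 125 and 139 CPM in TGF-beta1 cells and 37.6, 76.3 and 140.0 CPM in 3D-EV cells. This split gene is part of the sum, which was not taken without it. Of 31 interferon and antigen presentation genes, 3 were higher and 0 lower without overlap.

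**Figure D3:**
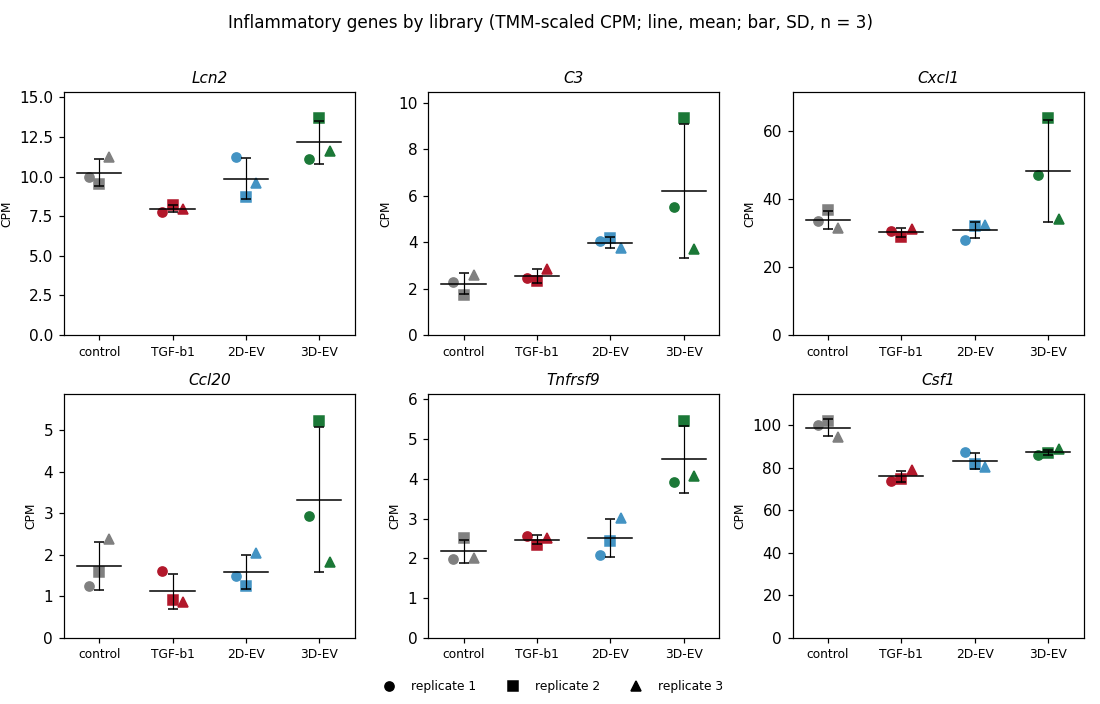
CPM of 6 inflammatory genes in each of the 12 libraries, by group, with the mean and the SD over 3 libraries; the marker shape gives the replicate number. All 3D-EV points lie above all TGF-beta1 points, and for C3, Cxcl1 and Ccl20 3D-EV replicate 2 (square) is the highest and replicate 3 (triangle) the lowest of the 3D-EV points.

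The promoters of 3 of these genes are shown because they carry a match to the NF-kB binding consensus (the kB motif), which sits close to the start site in 2 of them. Each is the 250 bases before the gene's start in RefSeq (build GRCr8), 5′ to 3′ on the gene's strand, with the bases of the match in capitals.
Lcn2, chr3:36081781-36082030, minus strand: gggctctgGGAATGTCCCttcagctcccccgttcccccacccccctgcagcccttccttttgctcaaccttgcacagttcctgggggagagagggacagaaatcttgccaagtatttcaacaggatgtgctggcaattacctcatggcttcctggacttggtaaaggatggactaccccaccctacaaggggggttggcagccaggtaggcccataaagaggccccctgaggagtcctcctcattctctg
Cxcl1, chr14:17479322-17479571, minus strand: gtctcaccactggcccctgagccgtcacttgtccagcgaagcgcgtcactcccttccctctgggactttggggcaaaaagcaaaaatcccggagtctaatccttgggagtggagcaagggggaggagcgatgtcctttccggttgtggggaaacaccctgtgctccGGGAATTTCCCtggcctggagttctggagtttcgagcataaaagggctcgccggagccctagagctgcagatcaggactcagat
Ccl20, chr9:91836909-91837158, plus strand: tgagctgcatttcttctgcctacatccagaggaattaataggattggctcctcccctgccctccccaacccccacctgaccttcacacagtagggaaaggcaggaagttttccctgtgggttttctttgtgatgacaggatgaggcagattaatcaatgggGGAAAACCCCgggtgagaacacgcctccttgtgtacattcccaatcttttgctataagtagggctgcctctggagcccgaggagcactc
The match begins at position -242 in Lcn2 and -89 in Ccl20, counted from the start site. In Cxcl1, 2 matches that overlap begin at -84 and -83. B2m, whose promoter is not shown, held a match that begins at -137, and Csf1 had no promoter entry. The motif was searched on both strands in windows of 300 bases (250 before and 50 after the start). It was present in 13 of the 24 listed inflammation genes that have an entry and in 1142 of all 27457 promoters (4.16%; 4.88% of those of tested genes). It was absent from the windows of C3, Tnfrsf9 and Icam1, which says nothing of sites elsewhere, and a match is a description of the sequence, not evidence of binding. The list was built around NF-kB targets, so its share is not an independent result.

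Lysosomal genes were the list with the most members above the TGF-beta1 range. Of 30 tested, 18 were higher in all 3D-EV libraries and 0 lower, and 13 were higher at an unadjusted p below 0.05. The sizes were small: the median log2 fold change was 0.084 and no member passed by edgeR, DESeq2 or limma-voom. Summed over the list, TGF-beta1 libraries stood at 14575, 15103 and 15004 CPM and 3D-EV libraries at 15655, 15639 and 16288 CPM. The sums did not overlap. Control libraries were at 13892, 13400 and 14257 CPM and 2D-EV libraries at 15633, 15439 and 14424 CPM. The 2D-EV sums all lay below the 3D-EV sums, the highest only just, and ranged from below to above the TGF-beta1 sums. The count at an unadjusted p below 0.05 depended on single libraries and was 6 without TGF-beta1 replicate 1 and 7 without 3D-EV replicate 3, with 0 lower in each case.

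The higher members came from several parts of the organelle. Among the proteases, Ctsl, the cysteine protease cathepsin L, was at 1879.5, 1886 and 1797 CPM in TGF-beta1 cells and 1978, 2015 and 2120.4 CPM in 3D-EV cells (log2 fold change 0.14, 95% interval 0.060 to 0.21, edgeR adjusted p = 0.503). Ctsb was at 1475, 1555 and 1526 CPM in TGF-beta1 cells and 1603, 1619.9 and 1619 CPM in 3D-EV cells and the aspartic protease Ctsd at 741, 779 and 793 CPM in TGF-beta1 cells and 817, 798 and 889 CPM in 3D-EV cells. None of the 3 overlapped, although Ctsd came within a few CPM of doing so. Among the lipid-handling genes, Lipa, the acid lipase that splits cholesteryl esters, was at 138, 137 and 139 CPM in TGF-beta1 cells and 145, 149.5 and 148 CPM in 3D-EV cells (log2 fold change 0.10, 95% interval 0.039 to 0.16, edgeR adjusted p = 0.511). Npc2, a cholesterol carrier of the lumen, was at 845, 838 and 805 CPM in TGF-beta1 cells and 857, 898 and 946 CPM in 3D-EV cells (log2 fold change 0.12, 95% interval 0.040 to 0.20). In both the 3D-EV libraries were above the TGF-beta1 range. Lamp1, the main protein of the lysosomal membrane, was at 1491, 1558 and 1564 CPM in TGF-beta1 cells and 1639, 1615 and 1709 CPM in 3D-EV cells (log2 fold change 0.11, 95% interval 0.024 to 0.19). Of the proton pump, Atp6v1a was at 348, 363 and 369 CPM in TGF-beta1 cells and 385, 380.3 and 386 CPM in 3D-EV cells and Atp6v0d1 at 195, 204 and 212 CPM in TGF-beta1 cells and 213, 214 and 226 CPM in 3D-EV cells. These, too, did not overlap. Tfeb and Tfe3, transcription factors of lysosome biogenesis, had overlapping libraries, with log2 fold changes of -0.081 and -0.024. Apart from Ctsl and Lipa, these members were chosen after their values were seen.

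**Figure D4:**
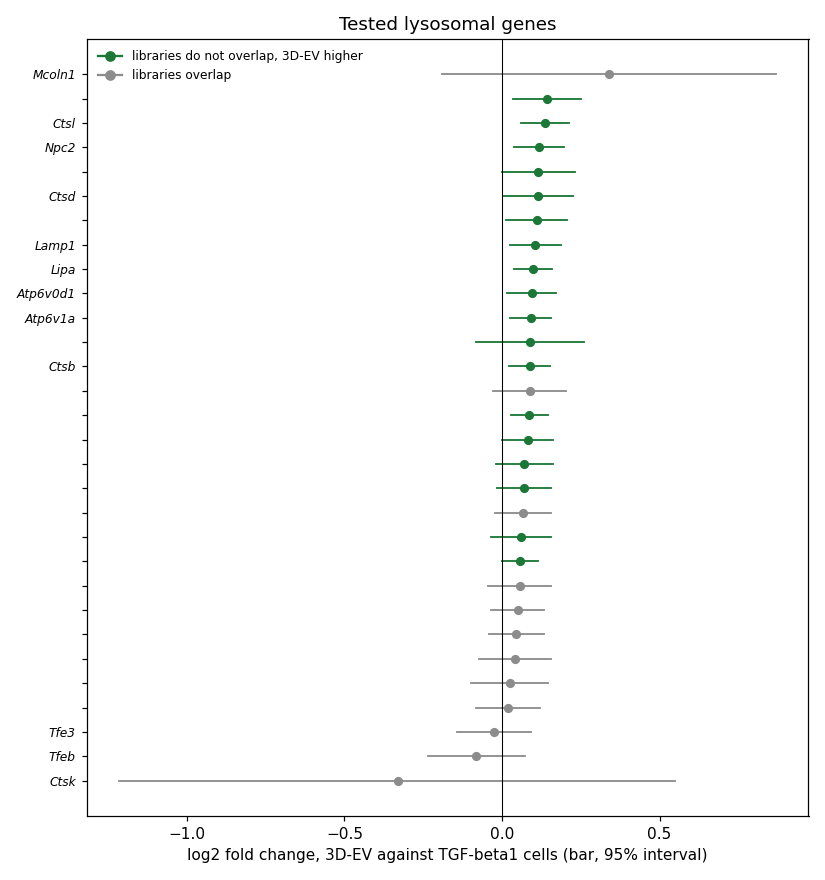
Log2 fold change of the 30 tested lysosomal genes in 3D-EV against TGF-beta1 cells, with 95% intervals from the edgeR fit. Genes named in the text are labelled. Of the points, 18 are green (libraries of the groups do not overlap, 3D-EV higher) and the rest grey, and the widest intervals are those of Mcoln1 and Ctsk.

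The promoter of Lamp1 is shown because it holds the E-box CACGTG, the core recognised by TFEB and related factors, 5 times. The 250 bases before its start (RefSeq, GRCr8) carry the matches in capitals.
Lamp1, chr16:83075064-83075313, minus strand: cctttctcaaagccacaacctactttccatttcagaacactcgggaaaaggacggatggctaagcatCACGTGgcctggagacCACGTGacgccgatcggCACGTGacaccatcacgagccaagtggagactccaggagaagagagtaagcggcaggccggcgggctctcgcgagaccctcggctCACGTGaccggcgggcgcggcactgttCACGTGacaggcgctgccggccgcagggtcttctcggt
The matches begin at -183, -167, -150, -65 and -38 and do not overlap. The motif reads the same on both strands. It was present in the 300-base windows of 6 of the 23 lysosomal genes with an entry, with 2 matches in Ctsd, and in 1826 of all 27457 promoters (6.65%). The share was 26.1% for the lysosome list, 9.46% for all tested genes, 21.1% for the cholesterol list and 16.7% for the inflammation list. The CLEAR motif, this E-box with 2 more fixed bases on each side, was present in 0 of the 23 lysosomal windows and in 76 of all promoters (0.277%). Ctsl, Lipa and Npc2 had no match in this window. As with the kB motif, a match describes the sequence and is not evidence of binding. Whether the share of the lysosome list bears on its expression was not tested.

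Genes of EV formation and uptake had more members above the TGF-beta1 range than below it. Of 33 tested, 7 were higher and 2 lower without overlap, 4 higher and 0 lower at an unadjusted p below 0.05, and the median log2 fold change was 0.015. The count of 4 was 6 without TGF-beta1 replicate 1 and 2 without TGF-beta1 replicate 2 or 3 or without 3D-EV replicate 2 or 3. The summed level of the list did not overlap, at 12156, 12263 and 12125 CPM in TGF-beta1 cells and 12393, 12578 and 12398 CPM in 3D-EV cells. In 2D-EV cells the sums were 12271, 12044 and 12150 CPM. Tspan8, a tetraspanin of EV membranes, was at 1551, 1549 and 1505 CPM in TGF-beta1 cells and 1572, 1657 and 1688 CPM in 3D-EV cells (log2 fold change 0.095, 95% interval 0.020 to 0.17). Cav2, a caveolin, was at 43.9, 44.0 and 42.3 CPM in TGF-beta1 cells and 48.5, 51.0 and 45.7 CPM in 3D-EV cells (log2 fold change 0.16, 95% interval 0.052 to 0.26), below its control libraries of 63.0, 59.5 and 63.0 CPM. Sdcbp, the adaptor syntenin of exosome formation, was at 750.3, 729 and 732 CPM in TGF-beta1 cells and 766, 777 and 795 CPM in 3D-EV cells, and the late endosomal GTPase Rab7a at 308, 312 and 311 CPM in TGF-beta1 cells and 322, 321 and 325 CPM in 3D-EV cells. In all 4 the 3D-EV libraries were the higher ones. The lower genes were Dnm2, which pinches off endocytic vesicles, at 116, 117 and 117 CPM in TGF-beta1 cells and 114, 114 and 113 CPM in 3D-EV cells, and the proteoglycan Gpc1, at 57.9, 59.6 and 59.9 CPM in TGF-beta1 cells and 55.6, 56.3 and 57.0 CPM in 3D-EV cells. Sdcbp, Rab7a, Dnm2 and Gpc1 were chosen after their values were seen. RNA carried by the EVs and RNA made by the cells cannot be told apart in these libraries.

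**Figure D5:**
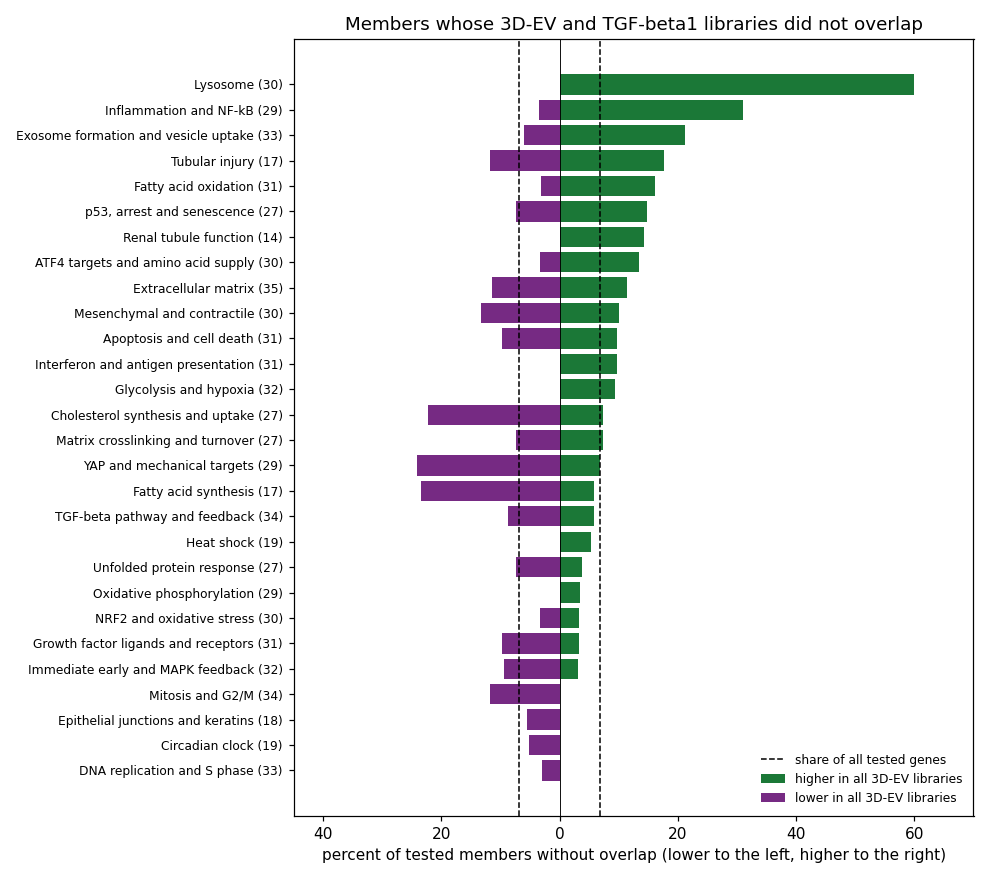
For each of the 28 response lists (tested members in brackets), the percent of members whose 3D-EV libraries were all above (green, right) or all below (purple, left) the TGF-beta1 libraries. Dashed lines mark the shares of all tested genes, 6.80% higher and 6.83% lower; the lysosome list (18 of 30) reaches farthest to the right.

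Lipid synthesis genes had more members below the TGF-beta1 range than above it. Of 27 genes of cholesterol synthesis and uptake, 6 were lower and 2 higher without overlap, and of 17 genes of fatty acid synthesis 4 were lower and 1 higher. Fasn, fatty acid synthase, was at 379, 393 and 378 CPM in TGF-beta1 cells and 356, 357 and 365 CPM in 3D-EV cells (log2 fold change -0.094, 95% interval -0.16 to -0.030). Acaca, which makes malonyl-CoA, was at 80.2, 81.5 and 84.9 CPM in TGF-beta1 cells and 74.7, 72.8 and 78.6 CPM in 3D-EV cells (log2 fold change -0.12, 95% interval -0.22 to -0.031). Both were lower in every 3D-EV library. The desaturase Scd was higher (log2 fold change 0.24, 95% interval 0.049 to 0.43). The medians of the lists were -0.0049, which turned to 0.0010 with upper-quartile scaling, and -0.048. At an unadjusted p below 0.05 the cholesterol list had 4 lower members (2 without 3D-EV replicate 1) and the fatty acid list 3 (1 without TGF-beta1 replicate 3 or 3D-EV replicate 2). Against control cells Fasn was higher in 3D-EV cells (log2 fold change 0.32, edgeR adjusted p = 2.32e-06). Scd was chosen after its values were seen.

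Fatty acid oxidation leaned the other way, with 5 of 31 members higher and 1 lower without overlap and a median of 0.041. Hadh, which carries out the dehydrogenase step of the beta-oxidation cycle, was at 21.2, 22.4 and 19.7 CPM in TGF-beta1 cells and 26.4, 26.9 and 25.5 CPM in 3D-EV cells (log2 fold change 0.32, 95% interval 0.16 to 0.47, edgeR adjusted p = 0.442, DESeq2 adjusted p = 0.0633). Its control libraries stood at 28.5, 29.4 and 27.1 CPM, so the 3D-EV values lay between the other 2 groups. Cpt2, the inner-membrane carnitine palmitoyltransferase, was at 46.1, 45.5 and 47.3 CPM in TGF-beta1 cells and 51.3, 52.5 and 55.1 CPM in 3D-EV cells (log2 fold change 0.19, 95% interval 0.075 to 0.31). The groups did not overlap for either gene. In 2D-EV against TGF-beta1 cells, 7 of the 31 were higher and 0 lower without overlap (6.13% and 6.23% of all tested genes), with a median of 0.057. The log2 fold change there was 0.26 for Hadh and 0.10 for Cpt2, so this lean was not particular to 3D-EV cells. Of 29 oxidative phosphorylation genes, 1 was higher and 0 lower without overlap, and of 32 glycolysis and hypoxia genes 3 were higher and 0 lower.

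Of 29 YAP and mechanical targets, 7 were lower and 2 higher without overlap, and 6 were lower at an unadjusted p below 0.05. That count was 2 without TGF-beta1 replicate 3 and 4 without 3D-EV replicate 3. YAP is a transcriptional coactivator that responds to cell shape and stiffness. Amotl1, an angiomotin that holds YAP outside the nucleus, was at 37.7, 39.5 and 40.2 CPM in TGF-beta1 cells and 33.7, 33.9 and 30.8 CPM in 3D-EV cells (log2 fold change -0.26, 95% interval -0.41 to -0.10), and Lats2, the kinase that inactivates YAP and is also its target, at 234, 226 and 235 CPM in TGF-beta1 cells and 222, 214 and 209.7 CPM in 3D-EV cells (log2 fold change -0.10, 95% interval -0.17 to -0.034). Both were lower in all 3D-EV libraries. The target Ccn2, also on this list, overlapped between the groups, as given above, and the median of the list was -0.024. In 2D-EV against TGF-beta1 cells, 12 of the 29 were lower and 1 higher without overlap (6.23% and 6.13% of all tested genes). Between the preparations, 8 were higher and 0 lower in 3D-EV than in 2D-EV cells (5.67% and 5.68%). Lats2 was at 205, 205 and 204 CPM in 2D-EV cells, below its 3D-EV libraries.

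Among 34 mitosis and G2/M genes, 4 were lower and 0 higher without overlap, and 28 of 34 had a log2 fold change below 0 (median -0.042). Of the list, 6 members had a log2 fold change above 0, beside 49.9% of all tested genes. Mki67, the proliferation marker Ki-67, was at 124, 121 and 128 CPM in TGF-beta1 cells and 119, 113 and 116 CPM in 3D-EV cells (log2 fold change -0.10, 95% interval -0.18 to -0.021). Ube2c, the ubiquitin-conjugating enzyme of mitotic exit, was at 47.8, 41.2 and 41.6 CPM in TGF-beta1 cells and 38.0, 39.2 and 40.5 CPM in 3D-EV cells (log2 fold change -0.15, 95% interval -0.28 to -0.019), a difference of -0.080 without TGF-beta1 replicate 1, the highest library. All 3D-EV libraries were lower for both genes. Of the list, 2 members were lower at an unadjusted p below 0.05, 7 without 3D-EV replicate 1, 1 without TGF-beta1 replicate 1 and 0 without 3D-EV replicate 2. Of 33 DNA replication genes, 1 was lower and 0 higher without overlap.

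Of 30 ATF4 targets and amino acid supply genes, 4 were higher and 1 lower without overlap (median 0.032). Ddit3, the stress transcription factor CHOP, was at 35.3, 33.2 and 35.0 CPM in TGF-beta1 cells and 40.3, 42.0 and 41.9 CPM in 3D-EV cells (log2 fold change 0.26, 95% interval 0.15 to 0.37, DESeq2 adjusted p = 0.0160, edgeR adjusted p = 0.405), with no overlap. Its 2D-EV libraries were at 42.2, 43.4 and 39.9 CPM, overlapping the 3D-EV values. Fgf21, a stress-induced hormone, was at 1.09, 1.46 and 1.24 CPM in TGF-beta1 cells and 1.71, 1.74 and 1.96 CPM in 3D-EV cells (log2 fold change 0.51, 95% interval 0.071 to 0.95). Of 27 unfolded protein response genes, 1 was higher and 2 lower without overlap.

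Several of the genes with the smallest p lay outside these lists and were chosen after their values were seen. Tcea3, a transcription elongation factor, was at 4.74, 4.50 and 4.42 CPM in TGF-beta1 cells and 6.34, 6.44 and 6.76 CPM in 3D-EV cells (log2 fold change 0.52, 95% interval 0.29 to 0.74), with control libraries at 8.41, 7.85 and 8.48 CPM. Adhfe1, a mitochondrial hydroxyacid-oxoacid transhydrogenase, was at 4.95, 4.83 and 5.44 CPM in TGF-beta1 cells and 6.34, 7.35 and 7.95 CPM in 3D-EV cells (log2 fold change 0.51, 95% interval 0.27 to 0.74), with control libraries at 12.6, 11.99 and 12.6 CPM. In both genes the 3D-EV libraries lay between the TGF-beta1 and the control libraries. Trim63, the ubiquitin ligase MuRF1, was at 9.98, 10.6 and 9.92 CPM in TGF-beta1 cells and 12.2, 13.7 and 14.3 CPM in 3D-EV cells (log2 fold change 0.40, 95% interval 0.22 to 0.58), above control libraries of 11.7, 11.4 and 11.5 CPM. Nxpe3 was at 16.7, 16.7 and 17.0 CPM in TGF-beta1 cells and 19.4, 21.1 and 20.8 CPM in 3D-EV cells (log2 fold change 0.28, 95% interval 0.15 to 0.41). The edgeR adjusted p was 0.405 for Tcea3 and 0.442 for Adhfe1, Trim63 and Nxpe3.

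The named gene calls of DESeq2 in the lower direction were Tmtc2 and Chd3. Tmtc2, a protein of the endoplasmic reticulum, was at 22.7, 23.7 and 25.8 CPM in TGF-beta1 cells and 19.7, 16.7 and 19.1 CPM in 3D-EV cells (log2 fold change -0.38, 95% interval -0.55 to -0.21, DESeq2 adjusted p = 0.0260, edgeR adjusted p = 0.442). Chd3, a chromatin remodeller, was at 214, 216 and 215 CPM in TGF-beta1 cells and 193, 182 and 188 CPM in 3D-EV cells (log2 fold change -0.19, 95% interval -0.29 to -0.10, DESeq2 adjusted p = 0.0318, edgeR adjusted p = 0.442). Both separated the groups. The 3 other lower calls were 2 assembled transcripts without a gene name, at 70.4, 72.0 and 70.6 CPM against 59.6, 57.3 and 58.8 CPM and at 65.8, 64.8 and 64.4 CPM against 55.2, 50.6 and 54.4 CPM, and 1 unnamed Ensembl gene. The latter was at 52.0, 19.9 and 11.3 CPM in TGF-beta1 cells and at 0 in every 3D-EV library, but also at 0 in 2 control and 2 2D-EV libraries. Stat6, a transcription factor of interleukin signalling, was called higher by DESeq2 although it held counts in 1 of the 3 3D-EV libraries only (0, 0 and 5.06 CPM) and in none of the TGF-beta1 libraries. Its edgeR adjusted p was 0.606, and the 2 calls that rest on zeros give no interpretable fold change. These genes were chosen after their values were seen.

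Between the EV preparations, the gene that separated 3D-EV cells most clearly was Ccn2, a gene of the TGF-beta1 response. 3D-EV and 2D-EV cells share dose and times per the labels. Ccn2 was at 4066, 4139 and 4012 CPM in 3D-EV cells, against 3385, 3438 and 3529.9 CPM in 2D-EV cells, with no overlap. The log2 fold change of 3D-EV against 2D-EV cells was 0.24, and Ccn2 was the only gene edgeR called (adjusted p = 0.00189, 1 of 14184, 0.00705%). By edgeR, 978 genes (6.90%) had an unadjusted p below 0.05, 469 of them higher in 3D-EV cells (3.31%), while DESeq2 called 19 (0.134%) and limma-voom 2 (0.0141%). The Ccn2 call held with each of the 6 libraries left out in turn, with an adjusted p of 0.00209 to 0.0274.

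Other contractile and TGF-beta1-induced genes had the same order of groups in this comparison without passing by edgeR. Acta2 was at 709, 731 and 730.2 CPM in 2D-EV cells, below each 3D-EV library (log2 fold change 0.21, edgeR adjusted p = 0.0698, 1.51e-06 by DESeq2 and 0.0364 by limma-voom). Tagln, the actin-binding protein transgelin, was at 526, 535 and 569 against 608, 624 and 627 CPM in 3D-EV cells (log2 fold change 0.19, edgeR adjusted p = 0.159). All 3D-EV libraries were the higher ones. Edn1, the vasoconstrictor endothelin-1, was at 127, 148 and 150.2 against 181, 178 and 159 CPM (0.28), and Olr1, a receptor for oxidised lipoprotein, at 38.6, 37.1 and 35.9 against 48.7, 51.7 and 45.2 CPM (0.38). Tagln, Edn1, Olr1 and Acta2 were among the 19 genes called by DESeq2, and Tagln, Edn1 and Olr1 were chosen after their values were seen. Of the 30 mesenchymal and contractile genes, 9 were higher in 3D-EV than in 2D-EV cells and 0 lower without overlap, beside 5.67% and 5.68% of all tested genes. Against TGF-beta1 cells, with which both comparisons share libraries, 15 of the 30 were lower and 0 higher in 2D-EV cells (6.23% and 6.13% of all tested genes), beside 4 lower and 3 higher in 3D-EV cells. Over all genes, edgeR called 4 in 2D-EV against TGF-beta1 cells (0.0282%). Whether these counts differ between the preparations was tested only gene by gene, as given here.

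The inflammatory and lysosomal genes were set against 2D-EV cells in the same way. Cxcl1 was at 28.0, 32.03 and 32.4 CPM in 2D-EV cells, below all 3D-EV libraries (log2 fold change 0.65, edgeR adjusted p = 0.457), and Tnfrsf9 at 2.07, 2.44 and 3.02 CPM (0.84, edgeR adjusted p = 0.328, 0.0413 by DESeq2). C3 was at 4.02, 4.19 and 3.72 CPM in 2D-EV cells, overlapping the lowest 3D-EV library. Without 3D-EV replicate 3, edgeR also called Cxcl1 (adjusted p = 0.0171) between the preparations. Of the 29 inflammation genes, 3 were higher and 0 lower in 3D-EV than in 2D-EV cells without overlap, and of the 30 lysosomal genes 7 and 0. Ctsb was at 1549, 1537 and 1448 CPM in 2D-EV cells (log2 fold change 0.10, edgeR adjusted p = 0.618), and Lamp1 at 1650.2, 1641 and 1529.6 CPM (0.042, edgeR adjusted p = 0.878). Neither passed.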

How the data were processed

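RNA of NRK-52E cells was sequenced in 12 libraries, 3 per group. Per the labels, RNA was taken up in TRIzol, treated with DNase I and made into libraries with a Yeasen Hieff kit. Per the submitters' processing notes, fastp, HISAT2, StringTie and DESeq2 were used with build mRatBN7.2; the sources used here give no versions, counting settings or strand handling. Values were deposited as raw whole-number counts per gene, not normalized by the authors, and the 12 tables per library were identical to the joint table. The value 1 filled 1514 cells and the value 2 filled 5687, an order that counts of single reads would not give, so very low values are uncertain.

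Genes with a sufficient count (edgeR's filterByExpr, minimum count 10) were fitted over all 12 libraries with edgeR 4.0.16 in R 4.3.3 (TMM, quasi-likelihood F-test), each comparison as a contrast, with Benjamini-Hochberg adjustment over 14184 genes and a threshold of 0.05. DESeq2 1.42.0, limma-voom (limma 3.58.1), other scalings and filters, the 6 compared libraries alone, a replicate block and leaving out each library were tried. The fits were tested on simulated data. Groups of libraries were said not to overlap where all libraries of one group lay above all of the other. No duplicate libraries were found: within groups, chi-square per degree of freedom was 6.56 to 10.4. A count of 0 allows up to 3 counts, and intervals of counts cover counting error only. Libraries of the same number did not pair, as given with the alternatives, and the labels name no batch.

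The members, the 28 response and 8 marker lists and the tests were chosen with earlier results of these data known. The rule for named genes was the largest changes among genes passing the threshold (none passed), a panel (Ccn2, Acta2, Vim, Tgfb1, Fn1, Col1a1, Cdh1, Havcr1, Lcn2), and per list the 2 genes of smallest p; all others are marked as chosen after their values were seen, and several picks of the rule are left unreported. Promoter sequences are RefSeq's (GRCr8) and were matched by symbol. They give no coordinates in the authors' build.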

Additional observations from a re-analysis of the deposited data

Results flagged for a closer look

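Ccn2 had a tested difference between the EV preparations: its log2 fold change in 3D-EV against 2D-EV cells was 0.24 (edgeR adjusted p = 0.00189). Libraries were at 4115, 4075 and 3990.5 CPM in TGF-beta1 cells, 4066, 4139 and 4012 CPM in 3D-EV cells and 3385, 3438 and 3529.9 CPM in 2D-EV cells, so the 2D-EV cells stood apart from both of the others.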

How the results depend on the processing

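The count of 0 genes for 3D-EV against TGF-beta1 cells held with edgeR under RLE and upper-quartile scaling, both other filters, the 6 libraries alone and the replicate block, and with limma-voom; DESeq2 gave 13. Leaving out 1 library gave 0 to 2 genes: 1 without TGF-beta1 replicate 2 (Glyr1) and 2 without 3D-EV replicate 3 (Cxcl1 and C3). The number at an unadjusted p below 0.05 stayed between 840 and 1168, and upper-quartile scaling counted 606 of 1045 as higher. For 3D-EV against 2D-EV cells the single call became 2 with the 6 libraries alone, 8 with no filter on low counts, 19 by DESeq2, 2 by limma-voom and 2 with the replicate block; leaving out 1 library gave 1 to 3. The cause of these moves was not tested. With the replicate block, edgeR counted 912 genes at an unadjusted p below 0.05 in 3D-EV against TGF-beta1 cells. The replicate numbers share no stated source: residuals of 18 same-numbered pairs correlated by -0.067 to 0.045, 0 above 0.1, and 5 of 12 libraries were closest to their own number. Of 476 list medians under alternatives, 49 differed in sign, so medians near 0 carry no direction. Depth limits genes near 1 CPM, such as Cdh1 and Ccl20.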

Other observations

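The counts of several further gene groups are given beside the background of 6.80% higher and 6.83% lower. Of 27 p53, arrest and senescence genes, 4 were higher and 2 lower in all 3D-EV than in all TGF-beta1 libraries. Lmnb1, the nuclear lamina protein lost in senescent cells, was at 92.2, 86.1 and 90.4 CPM in TGF-beta1 cells and 84.6, 80.9 and 78.2 CPM in 3D-EV cells (log2 fold change -0.14, 95% interval -0.24 to -0.042), with control libraries at 103, 104 and 111 CPM. Of 32 immediate early genes, 1 was higher and 3 lower. Of 19 circadian clock genes, 0 were higher and 1 was lower, the clock repressor Per1, at 35.7, 36.9 and 36.0 CPM in TGF-beta1 cells and 34.2, 28.0 and 32.5 CPM in 3D-EV cells (log2 fold change -0.20, 95% interval -0.38 to -0.016, and -0.12 without 3D-EV replicate 2). Dbp, a clock output factor, had the opposite sign but overlapped, at 18.2, 18.2 and 21.6 CPM in TGF-beta1 cells and 21.4, 22.7 and 23.7 CPM in 3D-EV cells (log2 fold change 0.22, 95% interval 0.059 to 0.39). Of 30 NRF2 and oxidative stress genes, 1 was higher and 1 lower, the higher being Gsta4, a glutathione transferase, at 49.8, 51.5 and 50.1 CPM in TGF-beta1 cells and 54.3, 53.4 and 56.4 CPM in 3D-EV cells (log2 fold change 0.12, 95% interval 0.024 to 0.21). Of 31 apoptosis and cell death genes, 3 were higher and 3 lower. Of 31 growth factor genes, 1 was higher and 3 lower, and of 19 heat shock genes, 1 was higher and 0 lower. None of these passed by edgeR.

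Some of the largest fold changes came from genes whose libraries split within a group, which a mean does not describe. They were chosen after their values were seen. Mterf2, a mitochondrial transcription factor, was at 11.3, 8.99 and 10.99 CPM in TGF-beta1 cells and 131, 6.78 and 9.11 CPM in 3D-EV cells. Its control libraries were at 13.2, 6.24 and 112 CPM. Dohh, which completes hypusine on the factor eIF5A, was at 10.1, 11.9 and 11.9 CPM in TGF-beta1 cells and 10.95, 10.0 and 60.2 CPM in 3D-EV cells. Its control libraries were at 8.81, 63.4 and 55.6 CPM. Hsd17b8 was at 15.5, 10.9 and 8.55 CPM in TGF-beta1 cells and 10.6, 54.1 and 41.05 CPM in 3D-EV cells. Its control libraries were at 54.3, 97.6 and 45.2 CPM and its 2D-EV libraries at 67.4, 62.3 and 45.2 CPM. Hsd17b8 passed in TGF-beta1 against control cells (log2 fold change -2.50, edgeR adjusted p = 0.00081). Nfkbie, an NF-kB inhibitor, was at 127, 125 and 139 CPM in TGF-beta1 cells and 37.6, 76.3 and 140.0 CPM in 3D-EV cells. In each of these genes 1 or 2 of the 3D-EV libraries stood far from the rest. Usp4, a deubiquitinase, separated the groups, at 35.4, 32.1 and 5.30 CPM in TGF-beta1 cells and 3.77, 3.05 and 2.05 CPM in 3D-EV cells (log2 fold change -3.02, 95% interval -4.94 to -1.10, edgeR adjusted p = 0.532), but its control libraries were at 5.46, 51.2 and 41.4 CPM and its 2D-EV libraries at 3.44, 36.2 and 29.9 CPM.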
